A study of Mus musculus with 69 samples.

Results

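A set of 5 genes of the netrin, netrin-G and Slit families was followed through the hippocampus of young and adult mice: Ntng1, Ntng2, Ntn5, Unc5c and Slit2. They were found by name in the count table, which held 9930 complete gene records, and all 5 were present. All 5 also passed the filter on low counts. The test for age (adjusted p under 0.05) was passed by 2 of the 5, Ntn5 and Ntng1, against 52% of all genes tested. Both were higher at postnatal day 66 (P66, adult) than at day 22 (P22, weaning). Ntn5 rose 2.40-fold (95% CI 2.10 to 2.74) and Ntng1 rose 1.37-fold (95% CI 1.28 to 1.47). No member passed the test for Cdh13 genotype, for maternal separation or for their interaction at either age. Hardly any gene did: 0% of all genes tested at P22, and 0.0571%, 0.371% and 0% at P66, in the same order.

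Netrins are secreted cues that attract or repel growing axons, and the receptor encoded by Unc5c carries their repulsive signal. Netrin-Gs are relatives that stay anchored to the axon membrane by a lipid and bind leucine-rich repeat partners (Lrrc4c for netrin-G1, Lrrc4 for netrin-G2) across the synapse. Slits are large secreted proteins that repel axons through Robo receptors, and in the hippocampus they take part in the sorting of fibre layers. Ntng1 is known for transcription in thalamus and in neurons that project into the hippocampus, Ntng2 for transcription in pyramidal cells.

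The 69 libraries came from 69 male mice, 1 hippocampus each, in 8 groups. Animals were Cdh13 knockout (ko) or wildtype (wt), and came either from litters taken from the dam for 3 h daily between days 1 and 14 (maternal separation, MS) or from litters that were only handled (control, Ctr). The P22 libraries held 8 wildtype and 9 knockout animals of the control litters, with 11 wildtype and 10 knockout animals of the separated litters. The P66 libraries held 7 and 7 of the control litters, with 10 and 7 of the separated litters. Animals were bred in 2 rounds, called cohorts 1 and 2, and are named here by cohort and number (C1-56). Cdh13 encodes T-cadherin, a membrane-anchored adhesion molecule. The table ends on chromosome 8 before the end of that chromosome, Cdh13 itself was not analysed here, and the genotypes are therefore those of the labels. No source used here names the litters or the knockout's design, and separation was given to whole litters, so p-values for separation measure the spread between animals only and are too small if littermates are alike.

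Total counts in the held part lay between 11.3 and 16.4 M (M, mega), with a median of 13.3 M. Markers of the labelled tissue were present in every library: Prox1, a dentate granule cell gene, had a mean of 299.8 counts per M counts (CPM), and Neurod6, a pyramidal cell gene, 450.4 CPM. Of a thalamus and habenula list 10 genes were measured, of which Gbx2 was at 0 in 5 libraries and the others were never at 0, with a summed level of 217.3 to 466.2 CPM per library. In whole tissue, fewer cells of a type and less RNA per cell cannot be told apart. Counts of the 5 members in a library ran from 85 for Ntn5 to 3228 for Ntng2.

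Positions are on GRCm38, with the gene models of GENCODE M21. Ntng1 (ENSMUSG00000059857.15) spans chromosome 3 from 109780040 to 110144011 on the minus strand, and Ntng2 (ENSMUSG00000035513.19) spans chromosome 2 from 29194541 to 29253005 on the minus strand. Ntn5 (ENSMUSG00000070564.15) lies on chromosome 7 from 45684022 to 45694556, Unc5c (ENSMUSG00000059921.15) on chromosome 3 from 141465216 to 141834924, and Slit2 (ENSMUSG00000031558.15) on chromosome 5 from 47983138 to 48307733, all 3 on the plus strand. The members are thus of unlike size: Ntn5 covers 10535 bp and the other 4 cover 58465 to 369709 bp. Ntn5 overlaps Sec1, a fucosyltransferase gene on the opposite strand, and 519 bp (23.4%) of the Ntn5 exons are shared with Sec1 exons. Ntng2 shares 558 bp (14%) of its exons with 6530402F18Rik on the same strand, and Unc5c shares 118 bp (0.617%) with Gm15688 on the opposite strand. Whether strand was used in counting is not given in the sources used here, and without it reads of the shared stretches cannot be assigned to one gene. The microRNA gene Mir218-1 lies inside Slit2, outside its exons.

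The stretches upstream of the start sites of Ntn5, which had the largest change with age, and of Slit2, which had none past the test, are shown because they differ in their content of CG pairs, the letters in capitals (RefSeq, GRCm38.p6, plus strand). The first is chr7:45683772-45684021 and the second is chr5:47982905-47983137, which ends where the annotated exon begins.
Ntn5: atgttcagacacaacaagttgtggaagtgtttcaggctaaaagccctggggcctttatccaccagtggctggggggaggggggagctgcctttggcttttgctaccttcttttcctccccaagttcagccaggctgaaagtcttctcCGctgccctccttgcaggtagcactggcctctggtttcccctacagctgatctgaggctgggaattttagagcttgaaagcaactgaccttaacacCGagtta
Slit2: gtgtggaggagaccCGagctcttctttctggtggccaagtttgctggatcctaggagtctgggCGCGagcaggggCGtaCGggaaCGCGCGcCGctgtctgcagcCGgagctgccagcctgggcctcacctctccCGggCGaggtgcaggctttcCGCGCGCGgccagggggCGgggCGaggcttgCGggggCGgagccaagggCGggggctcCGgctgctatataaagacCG
Counted over 250 bases upstream of the start, Ntn5 held 2 CG pairs and Slit2 held 25, against a median of 6 over 32851 mouse promoters of the same length. At least as many as Ntn5 were found in 81.2% of promoters, and at least as many as Slit2 in 10.7%. The window of Slit2 includes 17 bases of annotated exon and that of Ntn5 none. The letters TATAAA, searched on both strands, were found in the window of Slit2, not in that of Ntn5, and in 12.4% of all promoters. The RefSeq windows of Ntng1, Ntng2 and Unc5c lie wholly within annotated exons of GENCODE M21, and their sequences are therefore not printed. They held 25, 4 and 23 CG pairs. Ntng1, which also rose with age, thus held as many as Slit2, and a relation of CG pairs to the age change was not tested.

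Per kb of exon, Ntng2 had the highest mean level over all animals, at 45.0 CPM per kb. Ntn5 (11.7), Ntng1 (10.8), Unc5c (7.77) and Slit2 (5.30 CPM per kb) were lower, and the order of Ntn5 and Ntng1 depends on age. Among 7121 genes with a length, Ntng2 stood at percentile 82.9 of the per-kb level and the other 4 stood between percentiles 32.3 and 49.5. All levels below are CPM without division by length, and are compared only within a gene.

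**Figure D1:**
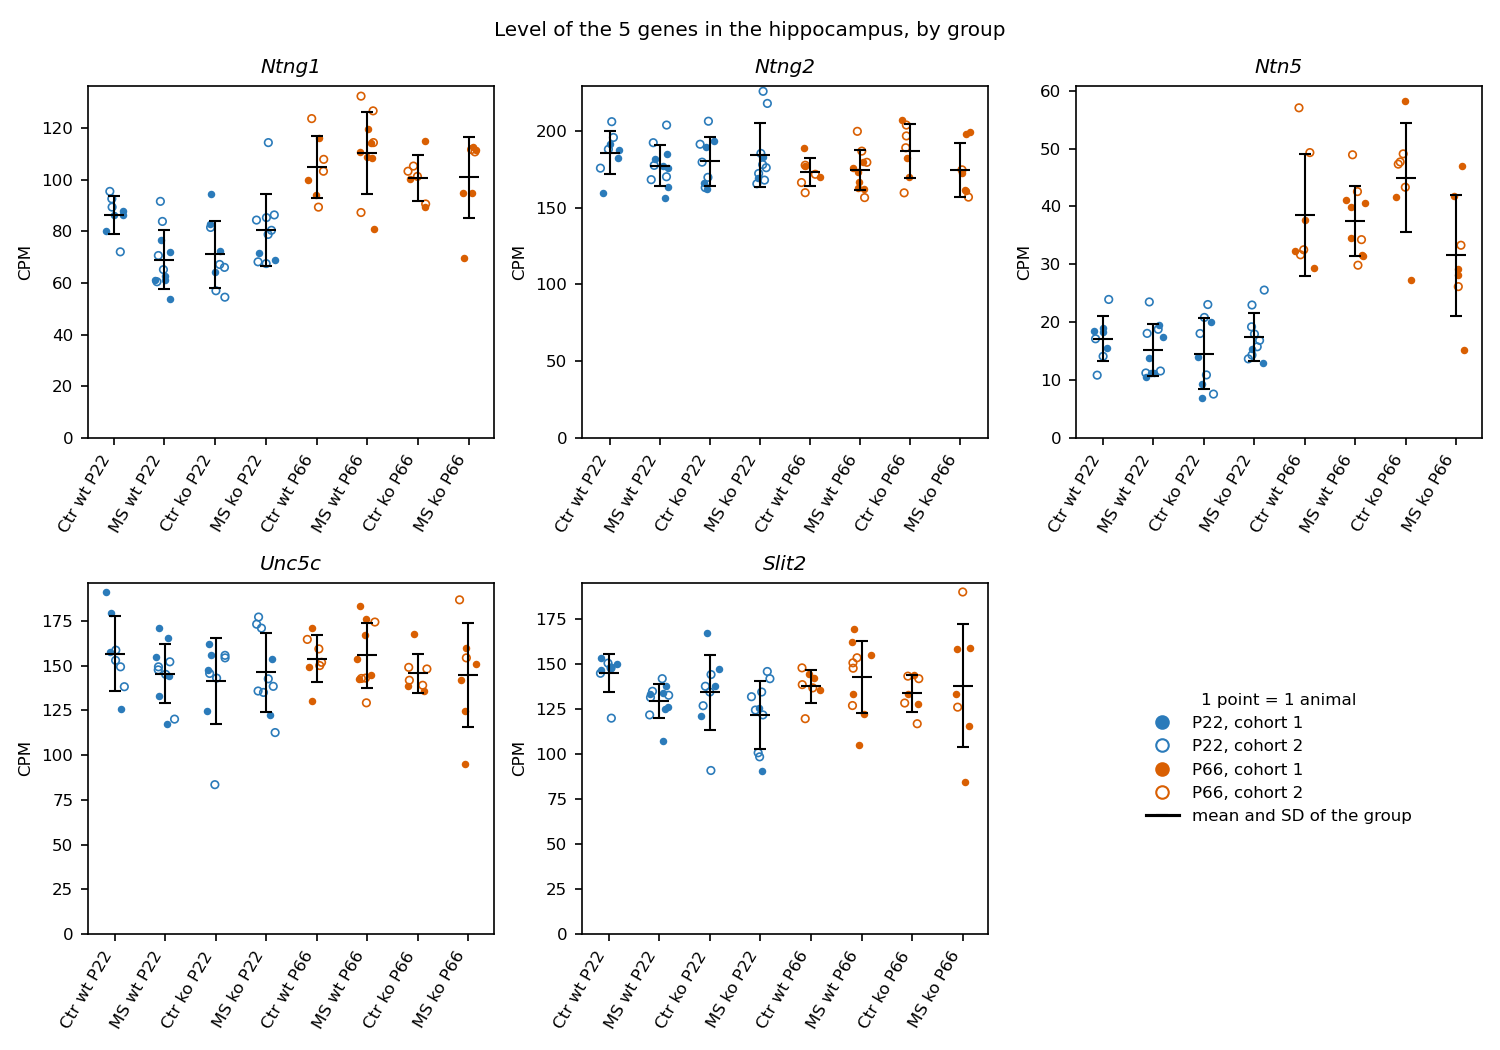
Level of each gene (CPM, linear axis from 0) in the 8 groups, 1 point per animal, filled for cohort 1 and open for cohort 2, with the group mean and SD in black. Ntn5 and Ntng1 are higher in the P66 groups (orange) than in the P22 groups (blue), and the groups of Ntng2, Unc5c and Slit2 overlap throughout.

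Ntn5 encodes netrin-5, a short secreted netrin. At P22 its lowest, median and highest levels were 10.8, 17.7 and 23.9 CPM in control wildtype animals, 10.55, 13.8 and 23.5 in separated wildtype, 6.81, 14.04 and 23.03 in control knockout and 12.9, 16.3 and 25.5 in separated knockout animals. At P66 they were 29.4, 32.5 and 57.04 CPM in control wildtype, 29.8, 37.2 and 48.9 in separated wildtype, 27.3, 47.3 and 58.2 in control knockout and 15.2, 29.2 and 47.0 in separated knockout animals. The ages did not overlap in 3 of the 4 genotype and rearing groups, and 30 of the 31 adults lay above the highest animal of P22. The exception was the separated knockout animal C1-58 at 15.2 CPM. Complete separation of the ages was seen in 6.39% of 7131 genes in control wildtype animals, 3.77% in separated wildtype, 5.44% in control knockout and 2.85% in separated knockout animals. Over all animals 0.505% of genes had no overlap, and Ntn5 was not among them because of C1-58.

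The mean of Ntn5 was 16.01 ± 4.70 CPM (SD, n = 38) at P22 and 38.1 ± 9.71 CPM (SD, n = 31) at P66. The log2 change averaged over the 4 genotype and rearing groups was 1.26 ± 0.0946 (SE), with an adjusted p of 1.71e-18 (edgeR quasi-likelihood test, Benjamini-Hochberg over all genes tested). It was the third-largest rise of the 7131 genes. Age was a broad contrast: 52% of the genes tested were called (adjusted p under 0.05), 26.2% higher and 25.8% lower at P66, and 2 of the 5 members were called, both higher. By group the log2 change was 1.15 ± 0.200 in control wildtype, 1.32 ± 0.170 in separated wildtype, 1.63 ± 0.193 in control knockout and 0.95 ± 0.196 in separated knockout animals. Each of the 4 passed the test in edgeR, with adjusted p between 6.16e-10 and 0.000183, where 18.9%, 30.8%, 28.1% and 19.2% of all genes were called in the same order. The rise was 1.31 in cohort 1 alone and 1.21 in cohort 2 alone, though within a cohort the call was lost in control wildtype animals (cohort 1, 0.90, adjusted p = 0.0637) and in separated knockout animals (cohort 2, 0.70, adjusted p = 0.153).

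Sec1, whose exons overlap those of Ntn5, moved the same way. Its mean went from 5.97 ± 1.53 CPM (SD, n = 38) to 12.1 ± 2.44 CPM (SD, n = 31), a log2 change of 1.01 ± 0.0783 (edgeR adjusted p = 7.77e-18). Of all 7130 other genes tested, Sec1 also had the pattern most like that of Ntn5 from animal to animal once group and cohort were taken out (Pearson r = 0.66 over 69 animals), followed by the potassium channel genes Kcnc4 (0.61) and Kcnj9 (0.60). Reads from the shared exon stretches can enter both counts, and their part in the change was not tested.

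**Figure D2:**
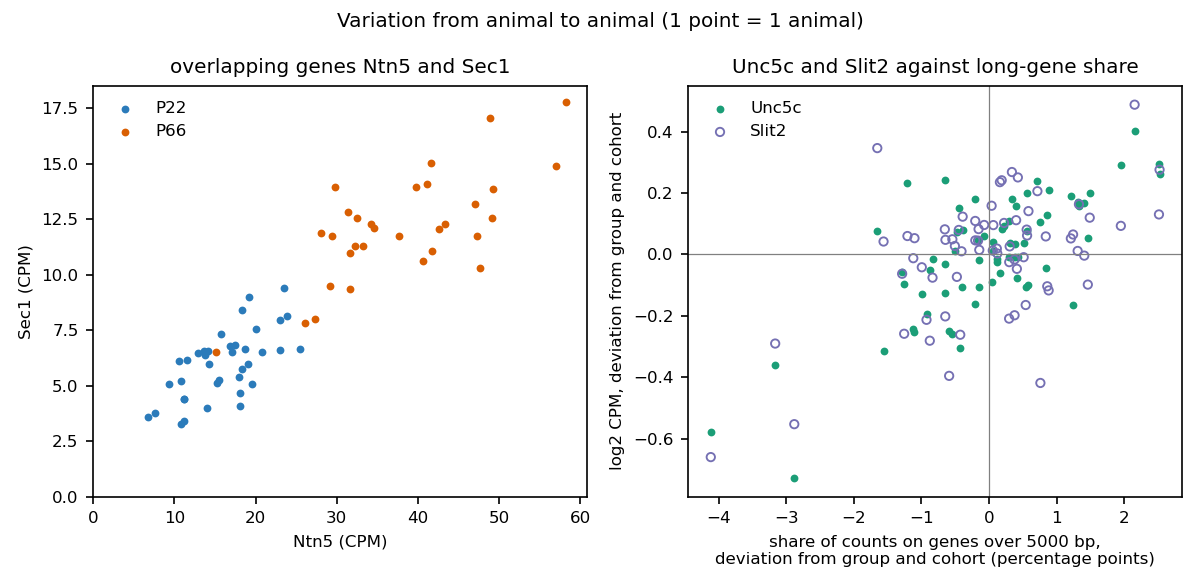
Left, Sec1 against Ntn5 (both CPM, linear axes from 0), 1 point per animal, P22 blue and P66 orange: both genes are higher at P66, and the adult at 15.2 CPM of Ntn5 lies among the P22 animals. Right, deviation of Unc5c (filled) and Slit2 (open) from the mean of their group and cohort (log2 CPM). The horizontal axis is the deviation of the share of counts on genes with more than 5000 bp of exon (percentage points). The lowest points of both genes are C1-56 (share -4.12) and C2-43 (-2.88). Slit2 was also low (-0.42) in the separated wildtype adult C1-53, whose share deviation was 0.76.

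Ntng1 encodes netrin-G1. At P22 its lowest, median and highest levels were 72.1, 87.0 and 95.5 CPM in control wildtype, 53.7, 65.2 and 91.6 in separated wildtype, 54.5, 67.2 and 94.6 in control knockout and 67.5, 79.6 and 114.4 in separated knockout animals. At P66 they were 89.4, 103.3 and 123.7 CPM in control wildtype, 80.8, 112.5 and 132.4 in separated wildtype, 89.3, 101.3 and 115.1 in control knockout and 69.8, 110.8 and 112.6 in separated knockout animals. The ages overlapped in every group, but 30 of 31 adults lay above the P22 median of their own genotype and rearing group. The mean was 76.2 ± 13.3 CPM (SD, n = 38) at P22 and 104.8 ± 13.7 CPM (SD, n = 31) at P66, a log2 change of 0.45 ± 0.0501 (edgeR adjusted p = 7.11e-12). A larger rise was found in 1.57% of the genes tested. By group the change was 0.68 ± 0.0896 in separated wildtype, 0.50 ± 0.103 in control knockout and 0.36 ± 0.103 in separated knockout animals, all called by edgeR (adjusted p at most 0.00922). In control wildtype animals it was 0.28 ± 0.106 and just missed the threshold (adjusted p = 0.0541 in edgeR, 0.0489 in DESeq2), although all 7 adults lay above the P22 median. Within a cohort the call was lost in control knockouts (cohort 1, 0.38, adjusted p = 0.130) and in separated knockouts (0.46 and 0.42 in cohorts 1 and 2, adjusted p = 0.0916 and 0.103). Both calls were also lost with scores of oligodendrocyte and choroid plexus genes as covariates, at 0.32 in control knockouts (adjusted p = 0.214) and 0.21 in separated knockouts (adjusted p = 0.335).

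Netrin-G2, the product of Ntng2, is the close relative of netrin-G1, and Ntng2 did not pass the test for age. Its mean was 181.6 ± 16.04 CPM (SD, n = 38) at P22 and 177.1 ± 14.9 CPM (SD, n = 31) at P66. The log2 difference was -0.03, with a 95% CI of -0.09 to 0.03 (edgeR adjusted p = 0.369), an interval that does not reach the 0.45 of Ntng1. Group means of Ntng2 lay between 173.2 and 187.1 CPM, and every neighbour in their order was closer than the SD of either group. From animal to animal Ntng2 was nearly unrelated to Ntng1 (r = 0.02) and varied with Ntn5 (r = 0.43), as descriptions over 69 animals that share library scaling. The genes most like Ntng2 were Adcyap1r1 (0.60), Scnn1a (0.58) and Adamts17 (0.58), and those most like Ntng1 were Strbp, Camk2d and Peg3 (0.67 to 0.68).

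Unc5c, the receptor, had a mean of 147.0 ± 20.7 CPM (SD, n = 38) at P22 and 150.6 ± 18.7 CPM (SD, n = 31) at P66. Its log2 difference with age was 0.02, with a 95% CI of -0.07 to 0.12 (edgeR adjusted p = 0.704). Slit2, the ligand of the Robo receptors, had a mean of 131.8 ± 17.2 CPM (SD, n = 38) and 138.4 ± 20.1 CPM (SD, n = 31), with a difference of 0.06 and a CI of -0.04 to 0.16 (adjusted p = 0.291). For both genes all neighbouring group means were closer than the SD of either group, from 141.3 to 156.5 CPM for Unc5c and from 121.5 to 145.1 CPM for Slit2. Close neighbours do not make the ends alike. Those of Slit2, separated knockouts (SD 18.97) and control wildtype animals (SD 10.52) at P22, lay farther apart than either SD. Within single groups neither Unc5c nor Slit2 was called for age in the fit of all libraries. Without the separated knockout adult C1-56, whose Slit2 level of 84.5 CPM was the lowest of all animals, Slit2 was higher at P66 in separated knockout animals (0.28, edgeR adjusted p = 0.0294, against 0.19 and 0.190 with it). The same was found without the 3 libraries with the lowest share of counts on genes with more than 5000 bp of exon, of which C1-56 is 1 (0.26, adjusted p = 0.0270). With scores of oligodendrocyte and choroid plexus genes as covariates Slit2 was lower at P66 in control wildtype animals (-0.37, adjusted p = 0.0324).

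**Figure D3:**
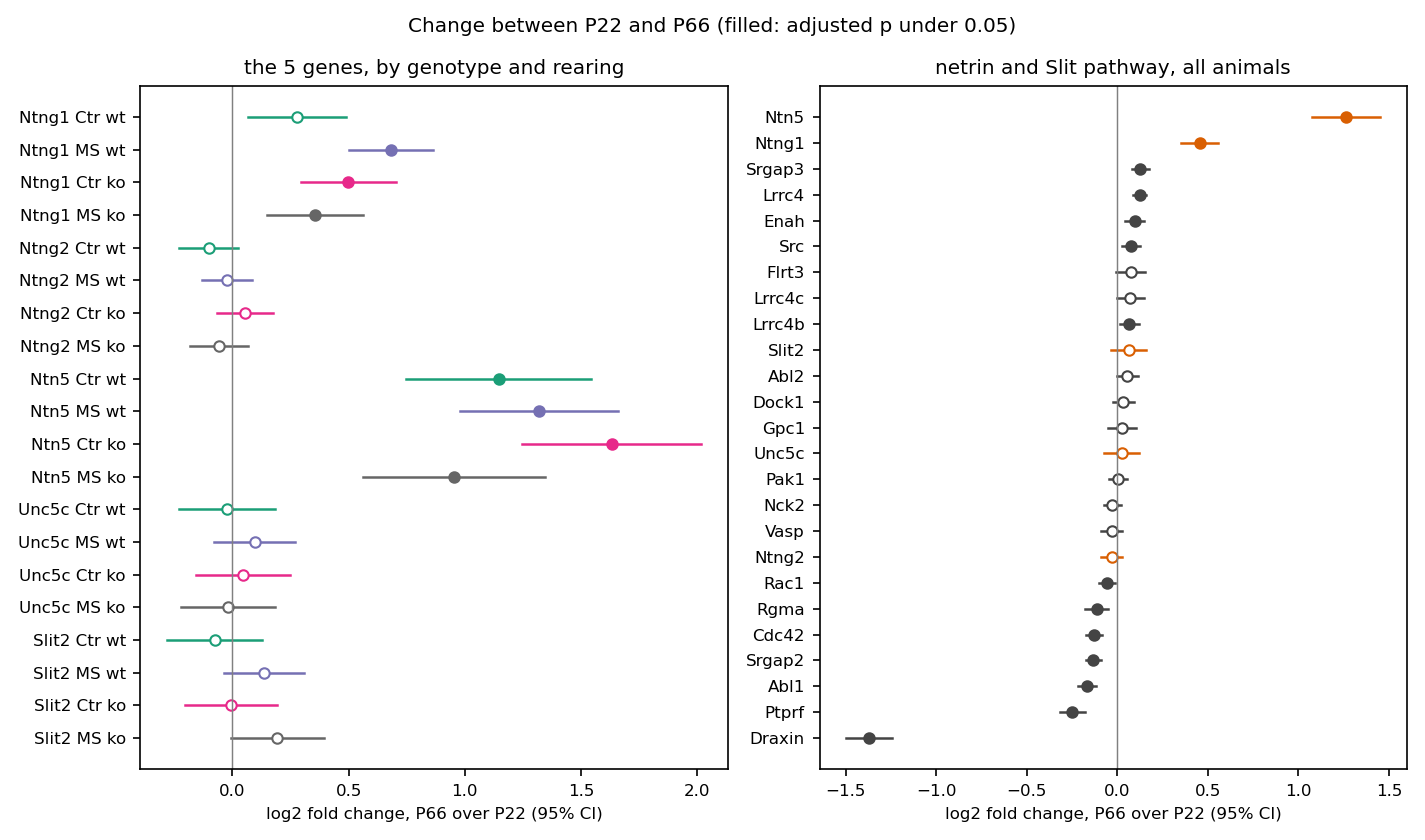
Log2 fold change from P22 to P66 with its 95% CI, filled where the adjusted p was under 0.05 (edgeR). Left, the 5 genes in each genotype and rearing group, with Ntn5 called in all 4 groups and Ntng1 in 3; right, the 5 genes (orange) and 20 other pathway genes over all animals, where Ntn5 has the largest rise and Draxin the largest fall.

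Of 49 listed genes of netrin, netrin-G and Slit signalling, 25 were in the table, the 5 members and 20 others. The table ends on chromosome 8, and coverage was uneven. It held 1 of 4 secreted netrins, 1 of 7 netrin receptors, 1 of 3 Slits and 1 of 6 Slit receptors and co-receptors. Of genes that act below the receptors it held 12 of 18, so the counts here do not describe the whole pathway. Among the 20 others 5 rose and 7 fell with age (12 of 20 called, against 52% of all genes), with a median log2 change of 0.015 beside 0.0089 for all genes tested. Draxin, a secreted repellent that binds netrin receptors, fell 2.59-fold (log2 -1.37 ± 0.0630, edgeR adjusted p = 6.89e-29), and all 31 adults lay below the P22 median of their group. Ptprf, a receptor phosphatase that binds the netrin-G ligand relative Lrrc4b, fell by 0.25. The netrin-G2 partner Lrrc4 rose by 0.12 ± 0.0186 and Lrrc4b by 0.07 ± 0.0254, and the netrin-G1 partner Lrrc4c had a difference of 0.07 ± 0.0375 that did not pass (adjusted p = 0.102). Among genes that act below the receptors, 3 of 12 rose and 4 fell: the Slit-Robo GTPase-activating genes went apart, Srgap3 up by 0.13 ± 0.0237 and Srgap2 down (-0.13 ± 0.0211), and the kinase gene Abl1 (-0.17) and the GTPase gene Cdc42 (-0.13) fell. Ntn5 thus had a change comparable in size only with that of Draxin among the 25, and in the opposite direction.

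Cell type markers moved with age beside these genes. All 7 measured genes of mature oligodendrocytes fell (median log2 change -1.38), and their summed level was 1813 to 4404 CPM per animal at P22 and 797.6 to 2104 CPM at P66. All 5 genes of oligodendrocyte precursors (median -0.38), all 5 of astrocytes (-0.15) and 5 of 6 of newborn neurons (-0.58) fell as well. The list of thalamus and habenula had 1 gene called higher and 4 lower (median -0.19), opposite to Ntng1, and none of the 8 choroid plexus genes was called. With scores of the choroid plexus and oligodendrocyte lists in the model, Ntn5 rose as well (1.14 ± 0.194, edgeR adjusted p = 7.59e-06), while that of Ntng1 became 0.29 ± 0.108 and missed the threshold (adjusted p = 0.0564). With a thalamus score in the model Ntng1 rose by 0.48 (adjusted p = 1.42e-11). The oligodendrocyte score itself moves with age, and its part in the change of Ntng1 cannot be told apart from age here.

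The series asks how genotype and rearing act together at each age. At P22 none of the 35 tests of members (7 comparisons each) was called by edgeR, DESeq2 or limma-voom. An unadjusted p under 0.05 (edgeR) was found for 5, of which 4 were of Ntng1. Those 4 comparisons draw on the same 4 group means and are not separate results. Over all 7036 genes, 143 to 851 had such a p in each of the 7 comparisons. Of all genes 0% were called in any of the 7 comparisons at P22, so the members do not stand apart in this. Ntng1 was lowest in separated wildtype animals (69.04 ± 11.3 CPM, SD, n = 11) and control knockouts (71.1 ± 13.1, SD, n = 9), and higher in separated knockouts (80.6 ± 13.98, SD, n = 10) and control wildtype animals (86.3 ± 7.33, SD, n = 8). Relative to control wildtype animals 10 of 11 separated wildtype animals lay at or below the median, whereas 10 of 10 separated knockouts lay above the median of control knockouts. All the same, the ranges overlapped in every pair of groups.

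On the log2 scale the interaction of Ntng1 at P22, the effect of separation in knockouts less that in wildtype animals, was 0.49 (95% CI 0.20 to 0.77, edgeR adjusted p = 0.584). The separation effect was -0.32 ± 0.0985 in wildtype and 0.17 ± 0.100 in knockout animals, with adjusted p = 0.753 and 0.978. The interaction was 0.23 in cohort 1 alone and 0.58 in cohort 2 alone, and knockouts of cohort 1 had only 2 separated animals at P22. The share of counts on genes with more than 5000 bp of exon had a like order over these groups, 56.1% and 55.96% in separated wildtype and control knockout animals, 56.5% in separated knockouts and 57.3% in control wildtype animals. With that share in the model, an alternative chosen after seeing the data, the interaction was 0.38 (adjusted p = 0.925). The partner Lrrc4c had an interaction of 0.23 ± 0.0899 (adjusted p = 0.584), and its genotype difference in control animals was -0.23 ± 0.0663 (adjusted p = 0.389).

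The other members at P22 gave smaller or less certain values. Slit2 was lower after separation by a log2 difference of -0.15 (95% CI -0.27 to -0.03, edgeR adjusted p = 0.999), with 19 of 21 separated animals at or below the control median of their genotype. That difference was -0.32 in cohort 1 alone and -0.06 in cohort 2 alone. The interaction of Ntn5 was 0.39 ± 0.270, that of Unc5c 0.17 ± 0.136, that of Ntng2 0.08 ± 0.0810 and that of Slit2 0.02 ± 0.117. The interval of Ntng2 (-0.09 to 0.24) was the narrowest and that of Ntn5 (-0.16 to 0.94) the widest. A positive interaction of Ntn5 of up to 0.94 thus lay within the error.

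At P66 again none of the 35 tests of members was called by edgeR, DESeq2 or limma-voom, and 1 had an unadjusted p under 0.05. By edgeR 0.0571% of all genes were called for genotype, 0.371% for separation and 0% for the interaction. The edgeR share was also 0% in the 4 comparisons within 1 genotype or rearing group. DESeq2 called 11, 98 and 0 genes for genotype, separation and interaction, and limma-voom 4, 33 and 0. For separation in knockouts they called 26 and 1. DESeq2 also called 4 for genotype in controls, 2 for genotype in separated animals and 1 for separation in wildtype animals. An unadjusted p under 0.05 (edgeR) was found in 269 to 855 of the 7001 genes per comparison. The member with the small unadjusted p was Ntn5: separated knockouts had 31.5 ± 10.5 CPM (SD, n = 7) and control knockouts 44.9 ± 9.42 CPM (SD, n = 7). The log2 difference was -0.47 (95% CI -0.85 to -0.10, edgeR adjusted p = 0.318), and 0 of 7 separated knockouts lay above the median of control knockouts, with overlapping ranges. Separation in wildtype animals gave -0.02 ± 0.167 for Ntn5, and the interaction was -0.46 ± 0.244 (adjusted p = 0.794). Ntng1, which had the largest interaction at P22, had -0.06 at P66 with a CI of -0.35 to 0.22. For Ntng2, Unc5c and Slit2 no log2 difference at P66 was larger than 0.11 in size.

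**Figure D4:**
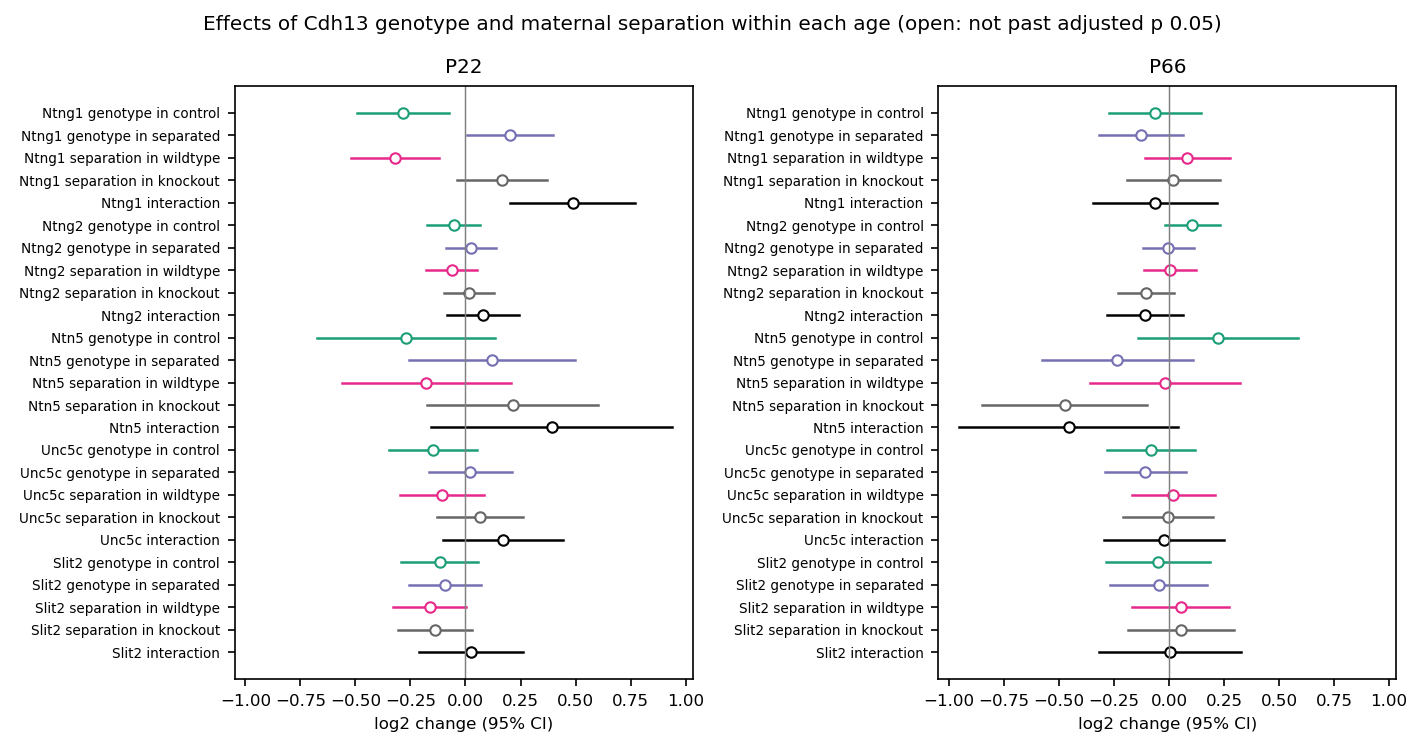
Log2 differences with 95% CI for genotype (knockout minus wildtype), separation (separated minus control) and their interaction in the 5 genes, P22 left and P66 right. All points are open, since none passed an adjusted p of 0.05 (edgeR), and the largest are the interaction of Ntng1 at P22 and the separation effect of Ntn5 in knockouts at P66.

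Whether the age change differed by genotype or rearing was tested in the fit of all 69 libraries. None of the 15 tests of members was called by edgeR, DESeq2 or limma-voom, and 3 had an unadjusted p under 0.05. By edgeR 0% of all genes were called for age by genotype, 0.0421% for age by separation and 0.0140% for the difference between the ages of the interaction. An unadjusted p under 0.05 (edgeR) was found in 153, 480 and 1000 of the 7131 genes, in the same order. The difference between the ages of the interaction was -0.85 ± 0.378 for Ntn5 (adjusted p = 0.329) and -0.55 ± 0.201 for Ntng1 (adjusted p = 0.300). It was negative in all 5 members, but within 1 SE of 0 for Unc5c (-0.19 ± 0.196) and Slit2 (-0.02 ± 0.194). Over all genes it was positive in 3522 of 7131. Age by separation was 0.21 ± 0.0979 for Slit2 (adjusted p = 0.715). The cohorts themselves differed in no member by edgeR, DESeq2 or limma-voom (0 of 5 tests, 0 with an unadjusted p under 0.05, 0% of all genes called), with the largest log2 difference 0.17 for Ntn5. Among the 20 other pathway genes no test was called by any of the 3 tools in these comparisons or within an age, with 12 of 140 at an unadjusted p under 0.05 at P22, 10 of 140 at P66 and 5 of 60 for the age interactions.

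Within groups, Unc5c and Slit2 varied together from animal to animal (Pearson r = 0.62, Spearman rho = 0.48, n = 69, group and cohort taken out), and r was 0.64 at P22 and 0.61 at P66. Both are genes with long exons, 19135 bp for Unc5c and 25433 bp for Slit2. The share of counts on genes with more than 5000 bp of exon, used next, includes Unc5c, Slit2 and Ntng1 (8243 bp) themselves. Ntng2 (3990 bp) and Ntn5 (2216 bp) are not in it, so the contrast between members is partly built in. Whether other genes of that length follow the share as closely was not tested. Unc5c followed the share of counts on genes with more than 5000 bp of exon (r = 0.74, rho = 0.61, permutation p = 1e-05 for each, the smallest 100000 draws can give; adjusted over 5 genes 2.5e-05 and 5e-05). Without the 2 animals farthest from the median share r was 0.67, and it was 0.48, 0.80, 0.84 and 0.53 in the 4 sets of 1 age and cohort (P22 cohort 1 and 2, P66 cohort 1 and 2). For Slit2 r was 0.53 (rho = 0.35, permutation p = 1e-05 and 0.00326, adjusted 2.5e-05 and 0.00573) and 0.39 without those 2, but within the same sets it was -0.02, 0.73, 0.67 and 0.08, so it held in only 2 of 4. Ntng1 had r = 0.44 (rho = 0.35, permutation p = 0.00017 and 0.00344, adjusted 0.000283 and 0.00573), 0.32 without the 2 animals, and 0.15, 0.36, 0.79 and 0.01 within the sets. For Ntng2 (r = 0.09, rho = 0.11) and Ntn5 (r = -0.10, rho = -0.04), the members with the shortest exons, the adjusted permutation p of r was 0.467. The lowest shares were 52.1% in the separated knockout adult C1-56, 53.2% in the control knockout C2-43 at P22 and 53.4% in the separated knockout C2-23 at P22. The first of these had the lowest Slit2 of all animals and the second the lowest Unc5c (83.5 CPM).

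The members were also set against 13 marker lists in the same way, 65 relations in all, of which 13 had an adjusted permutation p of r under 0.05. Unc5c followed the list of general neuronal genes such as Snap25 (r = 0.69, rho = 0.64, permutation p = 1e-05, adjusted 0.000325; 0.61 without the 2 farthest animals), and r was 0.58 to 0.80 in the 4 sets of age and cohort. Slit2 followed it too (r = 0.59, rho = 0.53, permutation p = 1e-05, adjusted 0.000325; 0.55 without the 2 farthest), with 0.39 to 0.80 in the sets. Slit2 also followed interneurons (r = 0.39, adjusted permutation p of r 0.00938). It ran against newborn neurons (-0.42, 0.00823), cortex, subiculum and claustrum (-0.37, 0.0123) and mature oligodendrocytes (-0.36, 0.0141). Unc5c ran against that cortex list (-0.40, 0.00845) and followed oligodendrocyte precursors (0.32, 0.0359). By rho, Slit2 with the cortex list (-0.30, adjusted permutation p = 0.0593) and Unc5c with precursors (0.25, 0.143) missed the threshold. The sign changed between sets for newborn neurons, mature oligodendrocytes and precursors. Ntng2 followed the dentate gyrus list (r = 0.39, rho = 0.37, permutation p = 0.00091 and 0.00174, adjusted 0.00938 and 0.0162; 0.46 without the 2 farthest), with 0.30 to 0.52 in the sets. Ntn5 ran against the choroid plexus list (r = -0.33, rho = -0.34, permutation p = 0.0064 and 0.00436, adjusted 0.0359 and 0.0283; -0.34 without the 2 farthest), with -0.42 to -0.30 in the sets. Ntng2 ran against the choroid plexus list as well (r = -0.31, rho = -0.39, permutation p adjusted 0.0438 and 0.0113), with -0.64 to -0.26 in the sets. Ntng1 did not follow the thalamus and habenula list (r = 0.15, rho = 0.19, permutation p = 0.211 and 0.127, adjusted 0.335 and 0.298). It followed the cortex, subiculum and claustrum list (r = 0.33, rho = 0.31, permutation p = 0.00623 and 0.0101, adjusted 0.0359 and 0.0545; 0.29 without the 2 farthest), with 0.12 to 0.48 in the sets. Ntng1 ran against the list of pyramidal cell genes (r = -0.40, rho = -0.32, permutation p = 0.00065 and 0.0074, adjusted 0.00845 and 0.0437; -0.27 without the 2 farthest), though r ranged from -0.80 to 0.22 in the sets and so did not hold in each. The 3 genes most like Unc5c were Dnajb14, Camta1 and Zyg11b (each 0.85), and those most like Slit2 were C530008M17Rik (0.80), Tmem178b (0.78) and Dchs2 (0.78). The 2 genes with the strongest relations between animals were therefore not the 2 that rose with age.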

How the data were processed

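RNA of 69 hippocampi was measured by sequencing, 1 library per mouse. The authors deposited raw, unscaled counts of reads per gene, 1 column for each mouse. The tools named per the submitters' processing notes are cutadapt 1.16, FastQC 0.11.4, limma 3.34.9 and edgeR. The aligner, the counter, its strand setting and the build: not given in the sources used here. A record broken at the end of the table was left out (1), and 96.5% of matched gene identifiers had the position of GENCODE M21 (GRCm38). Totals of 11.3 to 16.4 M are sums over the held chromosomes, not full depth. In 272 pairs of libraries of a group chi-square per degree of freedom was 4.47 to 88.0, so none differed by counting error alone.

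Counts were fitted in R 4.3.3 with edgeR 4.0.16 (quasi-likelihood, TMM, filterByExpr with a minimum count of 10 and total of 15), each age alone and all libraries together, with terms for group and cohort. Adjustment was by Benjamini-Hochberg over all genes of a comparison (7036 at P22, 7001 at P66, 7131 together), with calls at 0.05. The script was tested on simulated data. CPM are on TMM-scaled totals of the held part. Relations between animals used log2 CPM (prior count 2) less group and cohort means, with 100000 permutations, two-sided. The alternatives were DESeq2 1.42.0, limma-voom (limma 3.58.1), RLE scaling, no filter, at least 1 CPM in 7 libraries, each cohort alone, a fit that leaves cohort out, marker scores (thalamus; choroid plexus with oligodendrocytes) as covariates, 1 fit for both ages and leaving out each library. Later additions, chosen after seeing the data, were the long-gene share as covariate and leaving out the 3 libraries lowest in it.

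The members and lists were chosen with earlier results of these data known. Named were the 5 members, up to 6 called pathway genes of smallest adjusted p, the netrin-G partners and Srgap genes, the 3 genes most like each member, and up to 4 genes of a marker list. Sec1 was named for its overlap with Ntn5.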

Additional observations from a re-analysis of the deposited data

Results flagged for a closer look

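Each member was checked in the 7 groups of 4 to 10 animals, 35 sets in all, for an animal far from the rest. Such a gap is found by chance in about 1 in 20 sets, and 5 were found here. Ntng1 was 114.4 CPM in the separated knockout C2-36 at P22, where the next highest was 86.4, and 69.8 CPM in the separated knockout C1-56 at P66, where the next lowest was 94.9. Unc5c was 83.5 CPM in the control knockout C2-43 at P22 (next lowest 124.7) and 167.9 CPM in the control knockout C1-22 at P66 (next highest 149.0). Slit2 was 119.9 CPM in the control wildtype C2-85 at P22 (next lowest 144.8). The animals C1-56 and C2-43 also had the 2 lowest shares of counts on genes with more than 5000 bp of exon, 52.1% and 53.2%. The part of that share in these levels was not tested.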

How the results depend on the processing

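No paired analysis was possible because a number is given to an animal only within its cohort and rearing condition, so an equal number names different animals. Ntn5 was called for age under all alternatives and leave-one-out fits (log2 1.14 to 1.31 and 1.23 to 1.29). The number of members called for age was 2, but 1 with choroid plexus and oligodendrocyte scores as covariates. Over the 4 groups together 7 age tests of members were called, but 4 in cohort 1 alone, and 7 to 9 when a library was left out. Cohort 1 was not the only setting with another count, since single calls of Ntn5, Ntng1 and Slit2 were lost or gained elsewhere. Of the age tests of Ntng1 in control wildtype animals, 10 of 69 leave-one-out fits made a call, as did DESeq2, the filter at 1 CPM, the thalamus score, the long-gene share and leaving out the 3 libraries lowest in it. No member was called for genotype, separation, interaction or cohort under any alternative run, edgeR, DESeq2 and limma-voom included. Of the 65 relations with marker lists 13 had an adjusted p under 0.05, and 12 with group terms only.

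Among values that were not called but lay more than 1 SE from 0, the sign changed in these cases. Signs of values nearer to 0 are not followed here. In cohort 1 alone, separation in knockouts at P22 was -0.16 for Ntng1 and age was 0.015 for Ntng2. In cohort 2 alone, separation at P22 was 0.0545 for Ntng1, and genotype at P66 was 0.052 and, in separated animals, 0.22 for Unc5c. With the long-gene share, Unc5c had -0.0342 for the interaction, 0.0054 for genotype in controls and 0.0357 for separation in wildtype animals at P22, and -0.0348 for age in separated wildtype animals. With choroid plexus and oligodendrocyte scores, age was -0.23 for Slit2, -0.17 in separated wildtype and -0.0797 in separated knockout animals, and -0.061 for Unc5c in separated wildtype animals. The cause was not tested. The lowest count of a member was 85, for Ntn5 in a control knockout at P22, and groups held 7 to 11 animals. The parts of counting error and of the spread between animals in the errors were not tested.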
